A study of Homo sapiens with 6 samples.

Results

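The 9 receptor tyrosine kinase genes KIT, KDR, PDGFRA, PDGFRB, EGFR, MET, AXL, FGFR1 and IGF1R were followed in HT-1080 cells, an established human fibrosarcoma line labelled as wild type, with and without interferon gamma (IFNg). All 9 symbols were among the 17187 genes of the deposited table. The set was drawn up by symbol with these data in view, and was chosen on values that include the difference between IFNg and control. That difference is therefore given for the members as a description, without a p-value. The design held 3 libraries of control cells given PBS (control 1 to 3) and 3 of cells given recombinant IFNg at 10 ng/ml for 8 h (IFNg 1 to 3). The labels do not say that libraries of a group were grown apart, so p-values cover the spread of these libraries alone, and that spread may be technical.

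Receptor tyrosine kinases are single-pass membrane proteins that carry a ligand-binding part outside the cell and a kinase inside it. Ligand binding brings receptors together, the kinases phosphorylate each other, and adaptor proteins docked to the phosphotyrosines pass the signal on to RAS and phosphoinositide 3-kinase. KIT binds stem cell factor and is known from mast cells, melanocytes and germ cells. KDR, also called VEGFR2, is the main signalling receptor for vascular endothelial growth factor in blood vessel cells. PDGFRA and PDGFRB bind platelet-derived growth factors and are typical of fibroblast-like cells. EGFR, MET, AXL, FGFR1 and IGF1R bind epidermal, hepatocyte, GAS6, fibroblast and insulin-like growth factors.

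Values are normalised read counts, which are whole reads divided by 1 size factor per library, and 1 read was worth between 0.835 and 1.16 of these units. Between 59556948 (IFNg 3) and 83501954 (control 2) reads were assigned to genes in a library. Both libraries numbered 3 stood somewhat apart: their deviations from their group means correlated at 0.111 over 15546 genes, against 0.044 and 0.021 for the pairs numbered 1 and 2. Of 9 mesenchymal markers 8 were in the table. VIM, FN1 and CD44 had the highest values, which are not corrected for gene length. VIM was at 380457 ± 44482 in control and 369946 ± 48203 in IFNg (mean ± SD, n = 3 each). S100A4 was lowest of the 8, with 205 reads in control and 99 in IFNg, and THY1 was not analysed here. Of 6 epithelial markers, KRT8 (51293 reads in control) and KRT18 (33771) were well covered, CLDN4 was at 56.3 ± 16.3 and 44.3 ± 29.3, KRT19 had 1 read in control and 26 in IFNg, all of these in IFNg 2, and EPCAM and CDH1 were not analysed here. As the libraries were made from bulk RNA, fewer cells with a transcript and less of it per cell cannot be told apart.

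KIT, KDR and PDGFRA are neighbours on chromosome 4, and their promoter sequences are shown because these 3 members differed most between the groups. The sequences are RefSeq promoter windows on GRCh38.p14, cut to the 250 bases before the annotated start site and written on the gene's own strand, 5′ to 3′. Capitals mark matches to a GC box (GGGCGG) or to the AP-1 motif (TGANTCA), on either strand. PDGFRA has 2 annotated starts in this table. The windows lie at chr4:54657707-54657956 (KIT, plus strand), chr4:55125596-55125845 (KDR, minus strand), chr4:54229043-54229292 (PDGFRA, first start, plus strand) and chr4:54233710-54233959 (PDGFRA, second start, plus strand). These coordinates come from the reference table and not from the authors' files, whose notes name hg19.
KIT: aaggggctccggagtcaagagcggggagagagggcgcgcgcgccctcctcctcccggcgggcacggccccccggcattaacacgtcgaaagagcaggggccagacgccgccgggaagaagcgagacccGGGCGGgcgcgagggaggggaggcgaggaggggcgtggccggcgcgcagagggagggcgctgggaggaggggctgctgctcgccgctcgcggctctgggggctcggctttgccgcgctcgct
KDR: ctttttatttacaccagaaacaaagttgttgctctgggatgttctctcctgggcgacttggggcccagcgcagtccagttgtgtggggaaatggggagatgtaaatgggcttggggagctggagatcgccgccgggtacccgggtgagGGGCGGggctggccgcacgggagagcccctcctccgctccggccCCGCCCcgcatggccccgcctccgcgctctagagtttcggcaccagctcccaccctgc
PDGFRA first start: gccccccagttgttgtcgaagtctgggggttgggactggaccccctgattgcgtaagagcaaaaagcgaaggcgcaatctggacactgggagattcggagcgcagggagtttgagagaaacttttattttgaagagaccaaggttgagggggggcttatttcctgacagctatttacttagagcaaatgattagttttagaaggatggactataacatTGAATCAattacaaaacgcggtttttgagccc
PDGFRA second start: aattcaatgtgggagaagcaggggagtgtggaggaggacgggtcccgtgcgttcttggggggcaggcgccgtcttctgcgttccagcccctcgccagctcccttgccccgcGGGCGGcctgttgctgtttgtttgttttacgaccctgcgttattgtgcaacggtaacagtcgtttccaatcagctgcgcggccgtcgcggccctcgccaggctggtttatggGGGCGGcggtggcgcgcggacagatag

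The KIT window was rich in G and C (76.4%), above 91.9% of the 35116 promoter windows of the table, whose median was 58.0%. The first PDGFRA window held 46.8% G and C, the second 64.0% and the KDR window 65.2%. A GC box stood once before KIT, on 2 occasions before KDR and on 2 before the second PDGFRA start, and 42.6% of all windows held at least 1. The first PDGFRA window held a match to the AP-1 pattern at -32, counted from the start site to the first base of the match. At least 1 such match was in 6.57% of all windows. The pattern allows any middle base, and this match read TGAATCA. The core of the interferon-stimulated response element (GAAANNGAA), searched on both strands and found in 6.88% of all windows, was not present in these 4 windows. Windows were available for 8 of the members, 11 in all, with FGFR1 the missing entry. Among these 11, 2 held the response element core, 1 before PDGFRB and 1 before the second AXL start. AP-1 matches were in 2 of the 11, the first PDGFRA window and the second EGFR window, which held 2 (TGAGTCA and TGACTCA). GC boxes were in 8 of the 11.

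KIT was the member with the largest decrease. Its normalised read count was 67.5, 17.5 and 68.1 in control 1, 2 and 3 and 0.929, 2.07 and 0 in IFNg 1, 2 and 3. All IFNg libraries lay below all controls, and control 2 was far below the other controls. KIT was thus weakly expressed in the control cells, with 154 reads in the 3 controls together, and had 3 reads in IFNg. The pooled ratio of control to IFNg was 47.3, with a 95% exact binomial interval of 15.9 to 232 that covers counting error only. The fitted log2 difference on the log2(value + 1) scale, IFNg minus control, was -4.62 ± 0.92 (SE) and lay between -5.25 and -4.19 when each library was left out in turn. Without both libraries numbered 3 it was -3.87.

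KDR was higher in IFNg. It was read at 16.1, 10.9 and 5.84 in control 1, 2 and 3 and at 136.6, 121.9 and 104.3 in IFNg 1, 2 and 3. The 3 IFNg libraries were close to one another and far above every control. The IFNg mean was 11.1 times the control mean (120.9 ± 16.2 against 10.9 ± 5.11, n = 3 each), and the log2 difference was 3.44 ± 0.55, with values of 3.09 to 3.75 without each library and 3.19 without both libraries numbered 3. Endothelial cells carry most KDR in the body. Of 7 endothelial markers 6 were in the table and 5 kept. Of these 5, 0 passed in limma, edgeR or DESeq2, with 0 at an unadjusted limma p under 0.05. As 4.32% of all kept genes passed in limma, 0 of 5 cannot show that the markers were unchanged. The summed level of the 6 markers was 7717 to 10107 in control and 5552 to 8485 in IFNg and was nearly all TIE1. CDH5, a defining endothelial gene, had 8 reads in the controls, all in 1 library, and 0 reads in IFNg, which allows up to 3 reads. CD34, a marker of blood progenitors and of vessel cells, was at 5.36, 9.19 and 0 in control and 27.9, 20.7 and 38.2 in IFNg and did not pass (limma adjusted p = 0.156).

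PDGFRA had no read in any control library. In IFNg 1, 2 and 3 it was read at 16.7, 35.1 and 25.5, or 74 reads in all. Set against 3 reads over the control group, and with the 74 IFNg reads taken as exact, PDGFRA was at least 26.8-fold higher in IFNg. This bound covers counting error in the controls only. All 3 IFNg libraries held reads, with IFNg 2 highest and IFNg 1 lowest. PDGFRA passed the filter on low values only through the IFNg libraries, so that a gene admitted in this way had to differ. Its fitted log2 difference of 4.68 ± 0.98 depends on the pseudocount and is no bound. It was 4.66 without both libraries numbered 3.

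**Figure D1:**
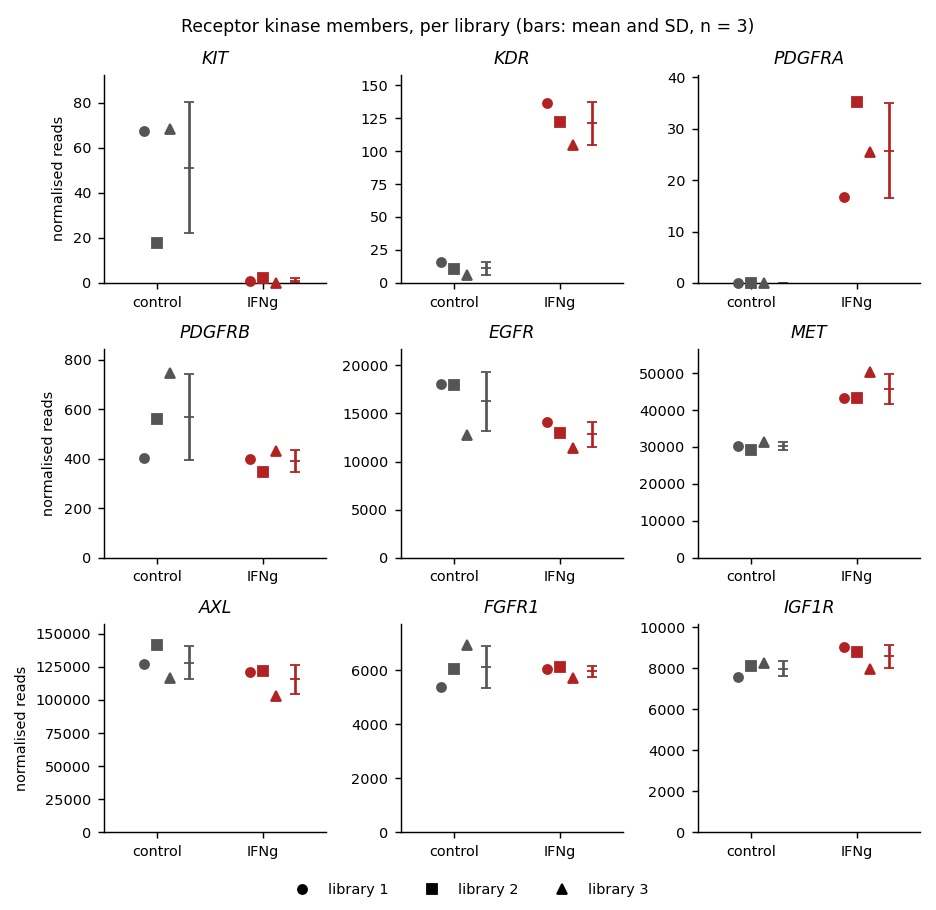
Normalised read count (y axis, linear from 0) of the 9 receptor kinases in each control (grey) and IFNg (red) library; symbols mark library numbers and bars the mean and SD of 3 libraries. KIT lies between 17.5 and 68.1 in the controls and at most at 2.07 in IFNg, all IFNg values of KDR, PDGFRA and MET lie above the control values, and the groups overlap for PDGFRB, EGFR, AXL, FGFR1 and IGF1R.

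The related receptor PDGFRB was expressed more than PDGFRA. PDGFRB was at 401.7, 560.4 and 746.6 in control 1, 2 and 3 and at 397.7, 345.1 and 433.2 in IFNg 1, 2 and 3. The groups overlapped, since control 1 lay among the IFNg values and control 3 well above them. The log2 difference was -0.50 ± 0.25 and ranged from -0.73 without control 1 to -0.28 without control 3, with -0.36 without both libraries numbered 3. Thus PDGFRA and PDGFRB, which share ligands, had differences of opposite sign, and that of PDGFRB moved with single controls.

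MET, the hepatocyte growth factor receptor, was abundant and higher in IFNg. It was read at 30356, 29243 and 31292 in control 1, 2 and 3 and at 43360, 43329 and 50291 in IFNg 1, 2 and 3. Every IFNg library lay above every control, and the spread inside each group was small against the distance between them. The IFNg mean was 1.51 times the control mean, with a log2 difference of 0.59 ± 0.09 that stayed between 0.52 and 0.62 without each library. HGF, its ligand, was not analysed here.

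EGFR was at 18089, 17965 and 12755 in control 1, 2 and 3 and at 14095, 12937 and 11431 in IFNg 1, 2 and 3. The 2 higher controls exceeded every IFNg library, but control 3 lay below 2 of them. The log2 difference was -0.33 ± 0.13 with all libraries, -0.50 without control 3 and -0.42 without both libraries numbered 3. In each group the library numbered 3 had the lowest EGFR value.

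AXL, the receptor for GAS6, was the most abundant member. It was read at 127036, 141136 and 116286 in control 1, 2 and 3 and at 121341, 122159 and 102908 in IFNg 1, 2 and 3. These ranges overlapped, and the log2 difference was -0.15 ± 0.11. FGFR1 was at 5393, 6033 and 6925 in control and 6041, 6096 and 5708 in IFNg. All IFNg values of FGFR1 fell inside the control range, and its log2 difference of -0.03 ± 0.11 became 0.09 without both libraries numbered 3. IGF1R was at 7562, 8127 and 8254 in control and 9024, 8788 and 7941 in IFNg, with a log2 difference of 0.10 ± 0.09. Here IFNg 1 and 2 lay above all controls and IFNg 3 did not.

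Over the 9 members, 4 passed an adjusted p of 0.05 in the limma fit over all 15546 kept genes, 3 of them higher in IFNg (KDR, PDGFRA and MET) and 1 lower (KIT). Of all kept genes, 4.32% passed, 3.27% as higher and 1.05% as lower. The same 4 members were those whose groups did not overlap, as was so for 20.0% of all kept genes in either direction. Because the members were chosen with this contrast known, these counts describe them and carry no weight as evidence. The median log2 difference was -0.03 over the members and -0.01 over all kept genes. Without each library in turn between 3 and 5 members passed. Without control 1, 3 passed as higher and 0 as lower, so KIT did not pass there. Without IFNg 1, IFNg 2 or IFNg 3, 2 passed as higher and 1 as lower.

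Levels of different genes can be set side by side only per length, so the normalised read count was divided by the length of all annotated exons (GENCODE v29) in kb. In control the order was AXL (26180 ± 2546), MET (4529 ± 153), EGFR (1436 ± 269), FGFR1 (938.4 ± 118), IGF1R (652.3 ± 30.1), PDGFRB (99.6 ± 30.2), KIT (9.84 ± 5.60) and KDR (1.80 ± 0.845), with PDGFRA at 0. Ranges of neighbours in this order did not overlap in the controls: the lowest EGFR library was at 1125 and the highest of FGFR1 at 1062, and KIT, at 3.38 to 13.1, lay above KDR, at 0.965 to 2.65. In IFNg the first 6 kept their order, and the last 3 changed places, again with no overlap between neighbours. KDR was at 20.0 ± 2.67 per kb, PDGFRA at 3.28 ± 1.17 and KIT at 0.193 ± 0.200. Even so, KDR in IFNg lay below the lowest PDGFRB library (60.4 per kb), and MET was at 6826 ± 600. Not all annotated exons need be used in these cells, so the order is approximate.

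**Figure D2:**
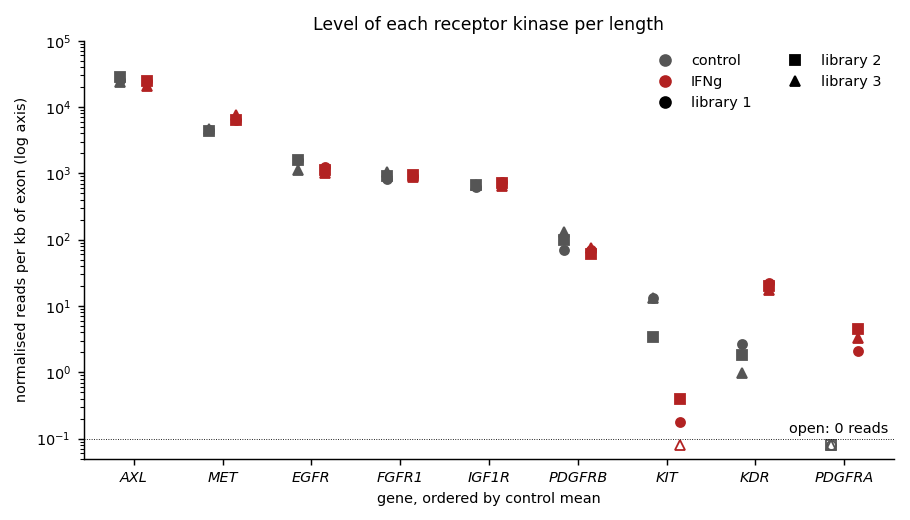
Normalised reads per kb of annotated exon (y axis, log scale) for each of the 9 genes, ordered by the control mean, with control libraries in grey and IFNg libraries in red; open symbols under the dotted line mark libraries with 0 reads. KIT, KDR and PDGFRA lie below all other members in both groups, with means of 9.84 and 0.193 for KIT and 1.80 and 20.0 for KDR in control and IFNg.

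No protein-coding gene lies between PDGFRA and KIT or between KIT and KDR in the RefSeq order, which lists 2 and 6 noncoding genes or pseudogenes there. The coding genes on either side were examined to see whether they shifted as well. From SCFD2 to CEP135 RefSeq lists 53 genes, 16 of them protein-coding, and 14 of the 53 were in the table, the 3 members included. Of the 10 neighbours that were kept, 0 passed limma's threshold in either direction, beside 4.32% of all kept genes. NMU alone had an unadjusted limma p under 0.05, and edgeR and DESeq2 called 0. At that share, 0 of 10 cannot show that the neighbours did not shift. On the PDGFRA side, CHIC2 was at 1063 ± 27.5 in control and 952.0 ± 116 in IFNg (log2 difference -0.16 ± 0.15, limma adjusted p = 0.689), FIP1L1, an mRNA processing factor gene, at 3260 ± 322 and 2953 ± 283 (0.648) and SCFD2 at 1756 ± 133 and 1968 ± 304 (0.672). The ubiquitin ligase gene LNX1 had 115.8 ± 31.5 and 63.6 ± 46.5 (-1.05 ± 0.51, adjusted p = 0.369). On the KDR side, SRD5A3, a dolichol synthesis gene, was at 946.8 ± 138 and 1169 ± 144 (0.31 ± 0.17, adjusted p = 0.438), and the circadian regulator CLOCK at 6125 ± 441 and 6514 ± 371 (0.747). TMEM165 (adjusted p = 0.961), EXOC1 (0.409) and CEP135 (0.918) had log2 differences of -0.03, -0.20 and 0.08. NMU, which encodes the neuropeptide neuromedin U, was the 1 neighbour of 10 whose groups did not overlap, beside 20.0% of all kept genes. NMU was at 16.1, 33.4 and 15.6 in control and 5.57, 7.23 and 0 in IFNg (-2.50 ± 1.0, adjusted p = 0.245).

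**Figure D3:**
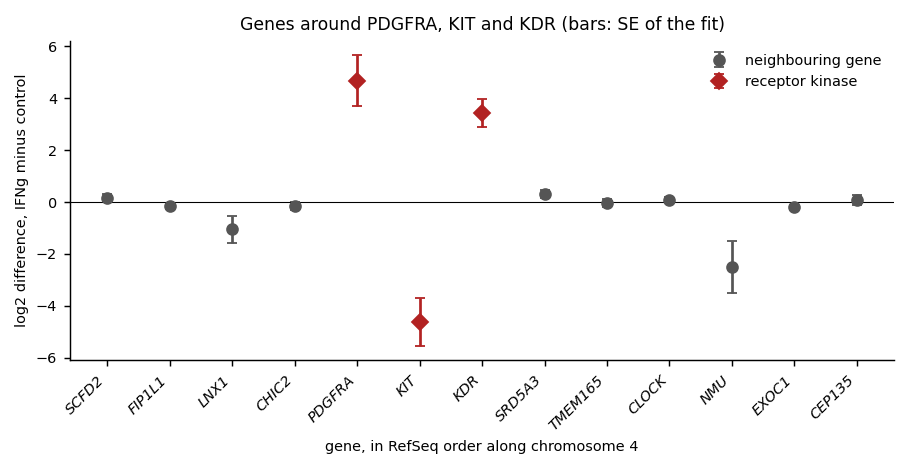
Log2 difference, IFNg minus control (y axis), with the standard error of the limma fit, for the kept genes from SCFD2 to CEP135 in RefSeq order along chromosome 4; red diamonds are the 3 receptor kinases and grey points the 10 neighbours. PDGFRA (4.68) and KDR (3.44) lie above 0 on either side of KIT (-4.62), while neighbours other than NMU (-2.50) and LNX1 (-1.05) lie between -0.20 and 0.31.

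The genes whose pattern over the 6 libraries was most like that of a member were found by Pearson's correlation of log2(value + 1), as a description over libraries that share the treatment. For KIT these were the serotonin receptor gene HTR1D (r = 0.9997), the mitochondrial complex I gene NDUFS6 (0.9925) and AZI2 (0.9897), and 34 of the 14206 genes compared had r above 0.95. HTR1D was at 1711, 1473 and 1685 in control and 1152, 1210 and 1074 in IFNg, so control 2 was the lowest control for both genes. For KDR they were BTN3A2 (0.9985), the nuclear body gene SP100 (0.9982) and IFI27 (0.9970), an interferon-induced gene. For PDGFRA they were TRIM14 (0.9993), CCDC125 (0.9979) and the small GTPase gene RALA (0.9975). KDR and PDGFRA had 280 and 339 genes with r above 0.95. Pearson's r does not measure how far a gene moved. AZI2 was at 3448, 3243 and 3401 in control and 3060, 3046 and 2927 in IFNg, a far smaller change than that of KIT.

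The lists of other receptor kinases, ligands, coreceptors and adaptors were drawn up with earlier results of these data known. Counts over them are therefore descriptions. Of 49 other receptor kinase genes listed, 43 were in the table and 40 were kept. One rose and 1 fell, which is 2 of 40 beside 4.32% of all kept genes, and the median log2 difference was -0.14 against -0.01 over all kept genes. EPHA2, an ephrin receptor, fell from 33560 ± 3140 to 22372 ± 646 (-0.58 ± 0.09, limma adjusted p = 0.00223). LMTK2, a membrane-anchored kinase, rose from 4129 ± 545 to 6534 ± 958 (0.66 ± 0.13, adjusted p = 0.0115). Without a variance trend in limma neither passed (adjusted p = 0.0793 and 0.169). EPHA2 kept its call without each library, whereas LMTK2 failed when control 1, control 2, IFNg 2 or IFNg 3 was removed (adjusted p at most 0.0706). The list held 5 calls without control 3 and 1 without control 1, control 2, IFNg 2 or IFNg 3. DDR2, a collagen receptor, was at 13490 ± 1360 and 10532 ± 544 and did not pass (adjusted p = 0.0685), nor did the ephrin receptor EPHB2, at 9643 ± 2129 and 11684 ± 432 (0.309).

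Close relatives of the 3 neighbours, named after their values were seen, include CSF1R for KIT and the PDGF receptors and FLT1 and FLT4 for KDR. FLT3, another listed receptor kinase, was not analysed here. CSF1R, which binds the macrophage growth factor CSF1, was at 225.9 ± 34.6 in control and 158.0 ± 19.9 in IFNg (-0.51 ± 0.29, limma adjusted p = 0.457). FLT1 was at 53.0 ± 17.1 and 44.9 ± 13.8 (adjusted p = 0.897), and FLT4, a receptor for VEGFC, at 76.3 ± 23.1 and 35.1 ± 18.8 (-1.21 ± 0.55, adjusted p = 0.326). By mean per kb of exon, KDR (1.80 in control, 20.0 in IFNg) lay below FLT1 (4.22) and FLT4 (12.4) in control and above them in IFNg (3.57 and 5.68). In control the ranges of KDR (up to 2.65) and FLT1 (from 2.64) overlapped, with 34 and 171 reads. These differences between receptors were not tested.

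Among 34 ligand genes of the 9 receptors, 25 were in the table and 20 kept, of which 1 rose and 3 fell, beside 3.27% and 1.05% of all kept genes. The median log2 difference was -0.16. Without control 2, IFNg 1 or IFNg 2 the list held 2 calls. VEGFC, a ligand of FLT4 and of KDR, rose from 5658 ± 428 to 14140 ± 735 (1.32 ± 0.09, limma adjusted p = 2.2e-06). VEGFA, the main ligand of KDR, fell from 26658 ± 1292 to 19854 ± 762 (-0.42 ± 0.08, adjusted p = 0.0109). VEGFC passed without each library, with adjusted p up to 6.39e-05, but VEGFA did not without control 2, IFNg 1 or IFNg 2 (up to 0.0829). Without a variance trend VEGFC passed (limma adjusted p = 0.00493) and VEGFA did not (0.115). These 2 ligands of KDR thus moved in opposite directions while KDR itself was higher.

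PDGFC, a ligand of PDGFRA, fell from 5477 ± 419 to 3443 ± 315 (-0.67 ± 0.11, limma adjusted p = 0.00296), a call kept without each library but not without a variance trend (0.0712). PDGFA, another ligand of PDGFRA, was at 1016 ± 115 and 1190 ± 45.8 and did not pass (adjusted p = 0.518). PDGFB had 17 reads in control and 8 in IFNg, and PDGFD 6 and 0. KITLG, which encodes the KIT ligand stem cell factor, was at 1279 ± 139 and 1099 ± 94.0 (-0.22 ± 0.15, adjusted p = 0.557), with every IFNg library below every control. Per kb of exon, KITLG stood at 219.8 in control and 188.8 in IFNg, above KIT (9.84 and 0.193) in both.

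HBEGF, a membrane-bound EGFR ligand, fell from 10837 ± 3033 to 5880 ± 585 (-0.84 ± 0.18, limma adjusted p = 0.0194). Control 3, at 7335, lay well below control 1 and 2 (12555 and 12621). Removing control 3 kept the call, and removing any other library ended it, with adjusted p up to 0.116 and log2 differences from -1.10 to -0.71. It was also lost without a variance trend (limma adjusted p = 0.257). TGFA, another EGFR ligand, was at 5008 ± 98.4 and 4193 ± 122 (-0.26 ± 0.09, adjusted p = 0.185), and EGF at 141.5 ± 27.9 and 100.6 ± 36.2 (0.584). GAS6, the AXL ligand, was at 11279 ± 1573 and 11937 ± 366 (adjusted p = 0.778). Ligands of FGFR1 did not pass either: FGF1 was at 702.4 ± 204 and 869.8 ± 139 (0.563), FGF2 at 2358 ± 365 and 2601 ± 215 (0.679), and FGF5 at 4717 ± 2178 and 3729 ± 824 (0.806).

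**Figure D4:**
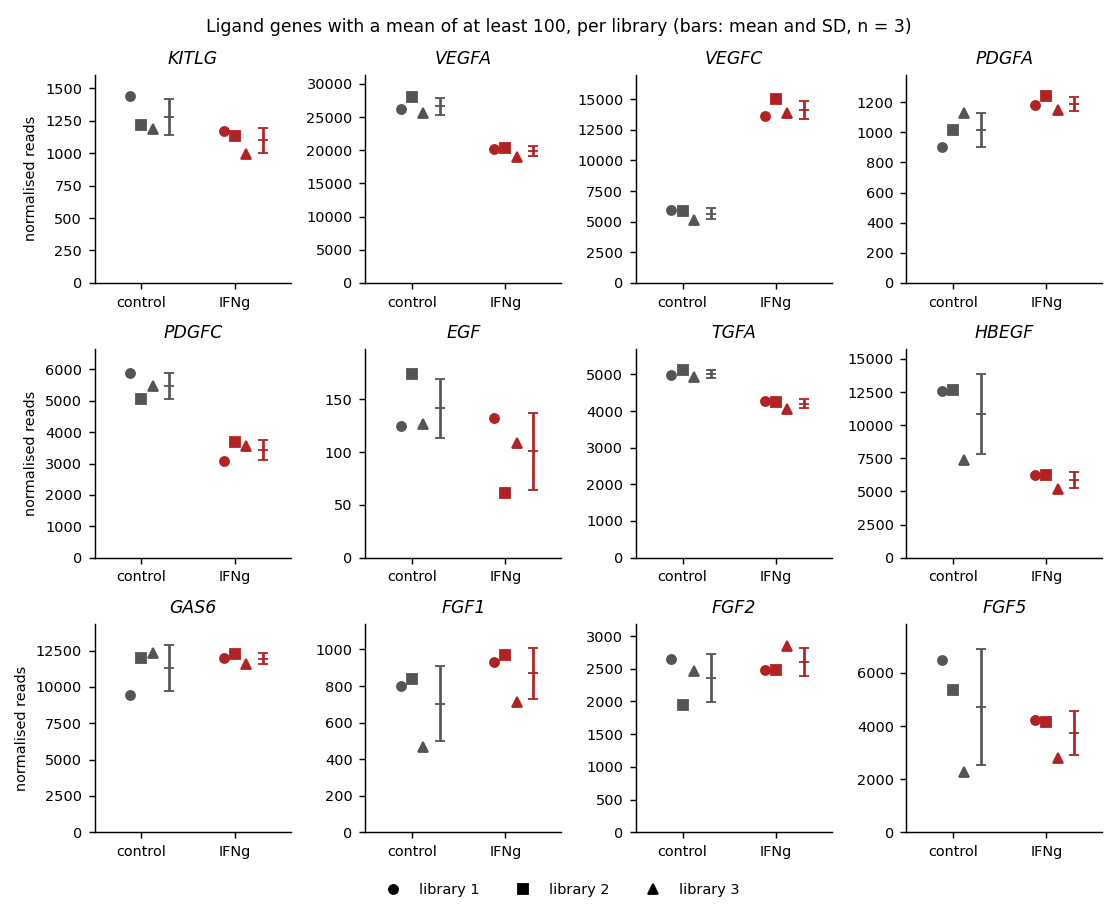
Normalised read count (y axis, linear from 0) per library for the 12 ligand genes with a mean of at least 100 in either group, control in grey and IFNg in red, with the mean and SD of 3 libraries. VEGFC rises from 5658 to 14140, VEGFA, PDGFC and HBEGF fall, and for HBEGF and FGF5 the lowest control is library 3.

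Of 31 coreceptor and inhibitor genes, 29 were in the table and 27 kept, of which 1 rose and 3 fell, beside 3.27% and 1.05% of all kept genes (median log2 difference -0.18). The list held 7 calls without control 3, 2 without control 2 or IFNg 3, and 1 without IFNg 1 or IFNg 2. NRP2, a coreceptor for VEGFC, rose from 17025 ± 812 to 23053 ± 165 (0.44 ± 0.08, limma adjusted p = 0.00732), a call lost without IFNg 1 or IFNg 2 (up to 0.0590). NRP1, the coreceptor for VEGFA, was at 70358 ± 386 and 67888 ± 2559 (adjusted p = 0.842). GRB10, an adaptor that restrains insulin and IGF1 receptors, fell from 5203 ± 496 to 3207 ± 387 (-0.70 ± 0.12, adjusted p = 0.00435), and kept its call without each library. The other genes of the list that fell were ERRFI1, a feedback inhibitor of EGFR, from 51771 ± 13933 to 29579 ± 4625 (-0.78 ± 0.18, adjusted p = 0.0323) and LRIG1, which restrains EGFR, from 3545 ± 352 to 2535 ± 92.8 (-0.48 ± 0.11, adjusted p = 0.0321). ERRFI1 kept its call only when control 3 was removed (up to 0.176 otherwise), and LRIG1 only when control 1 or control 3 was removed (up to 0.146 otherwise). Without a variance trend none of these 4 passed (limma adjusted p = 0.0937 for NRP2, 0.10 for GRB10, 0.30 for ERRFI1 and 0.141 for LRIG1). IGF2R, which clears IGF2, was at 41905 ± 1939 and 39486 ± 283 (adjusted p = 0.701). PTPN6, a phosphatase known to act on KIT and named here after its values were seen, had no read in control and was at 5.57, 26.9 and 16.2 in IFNg. It passed the filter on low values only through the IFNg libraries, like PDGFRA, so no p-value is given for it and a call of it carries no weight.

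Of the 31 adaptor and relay genes, all in the table and kept, 1 rose and 3 fell, beside 3.27% and 1.05% of all kept genes (median log2 difference -0.10). The list held 0 calls without control 2, IFNg 1 or IFNg 3, 1 without control 1 and 2 without IFNg 2. GAB1, a docking protein that binds MET, rose from 1104 ± 49.3 to 1715 ± 85.9 (0.63 ± 0.13, limma adjusted p = 0.0149). IRS2, the docking protein of insulin and IGF1 receptors, fell from 2176 ± 136 to 1389 ± 153 (-0.65 ± 0.13, adjusted p = 0.0133). The SRC-family kinase FYN fell from 5883 ± 1059 to 3843 ± 559 (-0.61 ± 0.15, adjusted p = 0.0385), and RASA1, which switches RAS off, from 19668 ± 2106 to 14076 ± 808 (-0.48 ± 0.10, adjusted p = 0.0147). Each of these 4 calls was lost without at least 4 of the 6 libraries taken singly, with adjusted p up to 0.197. RASA1 held only without control 3, GAB1 without control 1 or 3, and IRS2 and FYN without control 3 or IFNg 2. Without a variance trend GAB1 passed (limma adjusted p = 0.0383), and IRS2 (0.0814), FYN (0.274) and RASA1 (0.169) did not. PTPN11, the phosphatase SHP2, was at 32552 ± 1834 and 29290 ± 1780 (0.459), and SHC1, an adaptor, at 21593 ± 1642 and 20506 ± 1423 (0.790).

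**Figure D5:**
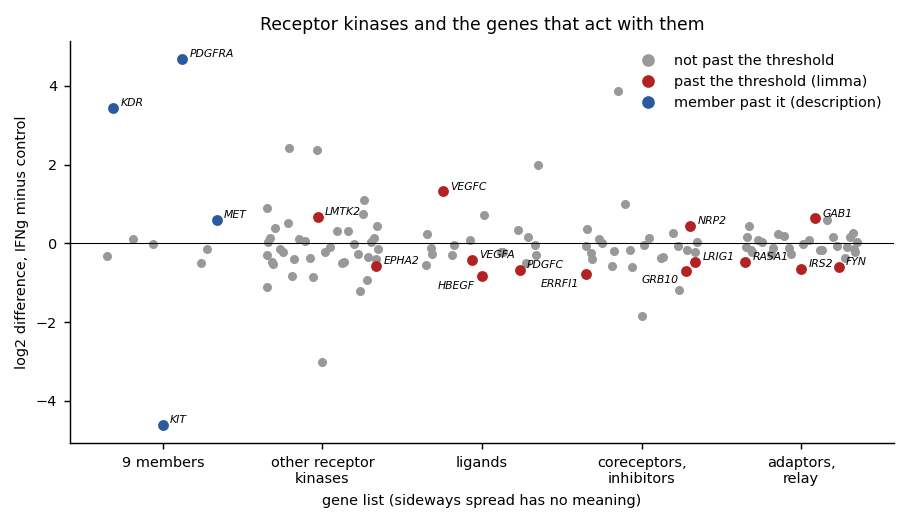
Log2 difference, IFNg minus control (y axis), for the members and the kept genes of 4 lists (x axis; the sideways spread has no meaning), with genes past the limma threshold coloured and named. KIT (-4.62), PDGFRA (4.68) and KDR (3.44) lie farther from 0 than the red genes of the other lists, of which VEGFC (1.32) is the farthest, and the grey point at 3.87 is PTPN6.

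Cell types known for KIT were checked beside its decrease. Of 5 mast cell markers 1 was in the table, MS4A2, with 9 reads in control and 7 in IFNg. Of 5 melanocyte markers 4 were in the table and kept, with a summed level of 999.7 to 1306 in control and 850.2 to 1090 in IFNg. Of these 4, 0 passed in limma, edgeR or DESeq2, with 0 at an unadjusted limma p under 0.05. The log2 differences of the 4 melanocyte markers ran from -2.23 to 0.01, with a median of -0.42, 3 below 0 and 1 above. MITF, a melanocyte regulator, was at 755.0 ± 197 and 547.9 ± 42.7 (limma adjusted p = 0.402). The haematopoietic markers summed to 8298 to 13242 in control and 8485 to 11421 in IFNg, nearly all of it LCP1. Of these 5 markers 4 were kept, with a median log2 difference of 1.34, and 0 passed in limma, edgeR or DESeq2, with 1 (CD34) at an unadjusted limma p under 0.05. As 4.32% of all kept genes passed in limma, 0 of 4 says little for the melanocyte or the haematopoietic list. CD53 was at 1.07, 3.34 and 0 in control and 37.2, 1.03 and 35.9 in IFNg (limma adjusted p = 0.341), and SPI1, a defining blood cell gene, had 0 reads in 5 of 6 libraries. Their part in the KIT, KDR and PDGFRA values was not tested.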

How the data were processed

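RNA depleted of ribosomal RNA was sequenced as stranded paired-end libraries in 3 control and 3 IFNg samples, per the labels' protocols. Listed in the submitters' processing notes are Cuffdiff 2.2.1, Cufflinks, TopHat2 2.0.13 and FastQC 0.11.3 with hg19 and GRCh37, without roles. Which tool counted reads, and whether by strand, was not given in the sources used here. Values are deposited signal. The file calls them RPKM, but 100% of positive values in each library were whole multiples of 1 step (tolerance 0.001 reads), so they are reads divided by a size factor, not corrected for length.

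The test was limma 3.58.1 (R 4.3.3) on log2(value + 1) with a variance trend, 2-sided, Benjamini-Hochberg adjusted at 0.05 over the 15546 genes that reached 0.5 in 3 or more libraries. The fit was tested on simulated data with changes set only in genes read more often than KIT or PDGFRA, so the test does not cover genes that low. Alternatives were edgeR 4.0.16 and DESeq2 1.42.0 on recovered reads, other pseudocounts, filters and scalings, a replicate block, and fits without single libraries. Members, lists and naming rules were chosen with earlier results of these data known, and motifs with the sequences in view. A further motif searched is not reported here. Named are all members and neighbours, list genes that passed, the 3 genes of each pathway list with the highest mean value, which is not corrected for length, ligands with a mean of at least 100 in a group, and the 3 genes most like KIT, KDR and PDGFRA (mean of at least 10). Markers are named where a result touches them. Promoters are RefSeq's (GRCh38.p14).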

Additional observations from a re-analysis of the deposited data

How the results depend on the processing

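Counts of genes past the threshold were 672 over all kept genes, 2 among other receptor kinases, 4 each among ligands, coreceptors and inhibitors, and adaptors, and 4 among the members. The 2 other pseudocounts, the 2 other filters, the 2 rescalings and edgeR (651 genes) kept each of these counts within 1.5 times. DESeq2 called 1059 genes. Without a variance trend 320 genes were called, with 0 other receptor kinases and 1 gene in each of the other 3 lists. Among coreceptors and inhibitors that gene was PTPN6, whose call carries no weight because the filter admitted it only through the IFNg libraries. Of 14 listed genes named as passing, 2 (VEGFC and GAB1) kept their call and 12 lost it. Without both libraries numbered 3 the counts were 1481 genes, 5 other receptor kinases and 7 coreceptors and inhibitors. With a term for these libraries, added after the data were seen, they were 1539 genes, 4 other receptor kinases and 7 adaptors. Leaving out 1 library at a time gave 386 (without IFNg 1) to 1302 (without control 3) genes, with 392 without control 2 and 405 without IFNg 2, 1 to 5 other receptor kinases, 2 to 5 ligands, 1 to 7 coreceptors and inhibitors, 0 to 4 adaptors and 3 to 5 members. The cause was not tested. Same-numbered libraries did not all deviate together (correlations 0.044, 0.021 and 0.111, with control 2 closest to IFNg 1 at 0.022), so the numbers were not taken as pairs. A replicate block gave 1464 genes, 5 other receptor kinases and 5 members. Fitted log2 differences of KIT and PDGFRA moved with pseudocount and tool, from -5.64 (DESeq2) to -3.05 (pseudocount 5) for KIT and from 2.58 (pseudocount 5) to 7.71 (edgeR) for PDGFRA. With 3 KIT reads in IFNg and 0 PDGFRA reads in control, depth limits both values.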
